A study of Mus musculus with 3 samples.

Results

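Tfr subcluster 1 is the group of follicular regulatory T cells (Tfr) that carried higher levels of Prdm1, Neb, S100a4 and S100a6 than the authors' Tfr subclusters 0, 2, 3 and 4. Levels were not computed for subclusters 5 and 6, which hold few cells. Its members were the cells that the authors' table of Tfr cells puts in subcluster 1, matched by barcode to the deposited UMI counts. They numbered 742 of 2044 Tfr cells in the knockout library, 229 of 1416 in WT run 1 and 248 of 1449 in WT run 2, or 1219 of 4909 listed Tfr cells. The cells were sorted as follicular T cells from mouse spleen and counted with the 10x 3′ single-cell assay, which counts RNA molecules by unique molecular identifiers (UMIs). The mice carried a knockout of Siglec-G in B cells (BKO, 1 library, batch 1) or were wild type (WT, 1 sample in batch 1 and 1 in batch 2). Mice of both genotypes had received ovalbumin in liposomes, and cells were taken 14 days later. Siglec-G restrains B cell receptor signalling, so the knockout lies outside the T cells described here. The sources used here do not give the Cre line, the age of the mice or the number pooled.

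Tfr cells express Foxp3, the defining transcription factor of regulatory T cells, enter the B cell follicle and restrain germinal centre responses. Their follicular programme depends on the repressor Bcl6. Prdm1 encodes Blimp-1, a transcriptional repressor that opposes Bcl6 and marks effector regulatory T cells, which make the cytokine IL-10 and carry high levels of ICOS and CTLA-4. Klf2, Il7r, Tcf7 and Id3 belong to resting or recirculating T cells and fall as T cells take on effector states.

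The WT samples were not separate cells. Every one of the 5554 barcodes of WT run 1 was among the 5721 of WT run 2, and UMI totals over 5068 barcodes listed in both correlated at r = 0.995 as a description. They were therefore treated as 1 WT library sequenced in 2 runs. With 1 library per genotype there is no test, no p-value and no replicate check for any difference between BKO and WT, and the exact 95% intervals given here cover counting error alone. In all, 13 BKO cells shared a barcode with WT run 2. UMI totals in the authors' tables matched the matrix within 0.1% for 8427 of 8433 BKO cells and 5138 of 5143 WT run 1 cells. In WT run 2 they did so for 0 of 5117 cells, and the median ratio of matrix to table was 1.519. WT run 2 cells were thus matched by barcode alone, and their levels here use counts other than those of the authors' table. Median UMIs per subcluster 1 cell were 7013 in BKO, 5192 in WT run 1 and 8440.5 in WT run 2, close to the 7073, 5118 and 8403 of the other Tfr cells. The median mitochondrial share was 2.92%, 3.14% and 3.14% in subcluster 1, against 3.89%, 3.72% and 3.72% in other Tfr cells. Siglecg gave 0 UMIs in subcluster 1 of BKO and of both WT runs, which checks nothing about a knockout in B cells. Foxp3 had at least 1 UMI in every subcluster 1 cell, as in every listed Tfr cell. Its detection is thus shared by the whole Tfr list and checks nothing about subcluster 1.

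With a minimum mean level of 50 CPM, the 4 marker genes had the highest ratios of subcluster 1 to other Tfr cells. Levels are in CPM, a gene's UMIs summed over the cells of a group and scaled to the group's total, and a leading gene had to be at least 2-fold over the other Tfr cells of the same sample in BKO and in both WT runs. Because the subclusters were made from these same genes, the comparison describes the subcluster and tests nothing. Neb encodes nebulin, a giant actin-binding protein of the thin filament of skeletal muscle. Its level in subcluster 1 was 215 CPM in BKO, 167 CPM in WT run 1 and 154 CPM in WT run 2, against 15.6, 12.5 and 11.5 CPM in other Tfr cells. That is 13.3-fold, 12.9-fold and 12.8-fold higher, and the groups did not overlap in BKO or in either WT run.

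Prdm1 stood at 132 CPM in BKO, 94.3 CPM in WT run 1 and 89.2 CPM in WT run 2 in subcluster 1, against 12.6, 8.92 and 9.29 CPM in other Tfr cells, or 10.1-fold, 10.1-fold and 9.17-fold higher. S100a4, a small calcium-binding protein linked to cell motility, stood at 1405 CPM in BKO, 1780 CPM in WT run 1 and 1655 CPM in WT run 2, against 212, 371 and 333 CPM. S100a6, a neighbouring member of the same family, stood at 2275, 2299 and 2124 CPM in BKO, WT run 1 and WT run 2, against 496, 494 and 448 CPM. The S100 transcripts were thus abundant in all Tfr cells and higher in subcluster 1, whereas Prdm1 and Neb were low outside it, at 8.92 to 15.6 CPM.

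Prdm1 lies on chromosome 10 (44437177 to 44528501, minus strand, mm10), S100a4 and S100a6 on chromosome 3 (90603771 to 90606045 and 90612882 to 90624181, plus strand), and Neb on chromosome 2 (52136647 to 52378474, minus strand). The 250 bases before the RefSeq start site (GRCm38.p6, the assembly of mm10) are shown for Prdm1, S100a4 and S100a6 because these are the marker genes with an entry in the promoter table. Capitals mark matches on either strand. The motifs searched were TGANTCA, bound by AP-1. The KLF family motif was CACCC, and the TATA box was TATAAA. The core bound by Blimp-1 was GAAAGT.
Prdm1, chr10:44458749-44458998, minus strand: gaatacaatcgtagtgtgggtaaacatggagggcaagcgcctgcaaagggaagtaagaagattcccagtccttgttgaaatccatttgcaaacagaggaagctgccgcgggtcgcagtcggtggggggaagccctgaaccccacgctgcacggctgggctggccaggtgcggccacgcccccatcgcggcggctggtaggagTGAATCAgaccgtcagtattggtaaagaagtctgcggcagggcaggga
S100a4, chr3:90603520-90603769, plus strand: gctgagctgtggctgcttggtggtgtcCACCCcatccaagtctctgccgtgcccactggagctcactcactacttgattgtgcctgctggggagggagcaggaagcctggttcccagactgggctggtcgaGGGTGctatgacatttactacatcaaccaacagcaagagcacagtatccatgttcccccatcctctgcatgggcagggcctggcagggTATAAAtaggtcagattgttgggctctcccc
S100a6, chr3:90612644-90612893, plus strand: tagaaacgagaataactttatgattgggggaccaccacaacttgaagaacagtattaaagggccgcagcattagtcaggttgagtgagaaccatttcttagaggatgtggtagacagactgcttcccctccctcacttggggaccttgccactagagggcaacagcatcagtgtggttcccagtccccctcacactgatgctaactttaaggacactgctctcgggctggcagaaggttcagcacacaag
The Prdm1 window held the AP-1 motif at 48 bases before the start site, read on both strands because the motif is a palindrome. The S100a4 window held the TATA box at 31 bases before the start, the KLF motif at 223 bases before it and its reverse complement at 119 bases before it. The S100a6 window held none of the 4. Of the 15 leading genes named below, 13 had an entry, and the AP-1 motif was in 1 of them, the Blimp-1 core in 0, the KLF motif in 8 and the TATA box in 2. Over all 32851 windows of this length the shares were 6.75%, 12.3%, 52.01% and 12.4%. A match is a run of letters and not a measured binding site, and none of the motifs overlapped another in these windows.

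By the size rule 24 of 3540 genes led the subcluster (0.678%) and 22 of 3573 were lower in it (0.616%), counts that the clustering itself fixes. The next genes after the 4 markers were Snx9, a sorting nexin of endocytosis, and Ncmap, a membrane protein first described in myelin. Snx9 stood at 109 CPM in BKO, 71.4 CPM in WT run 1 and 70.4 CPM in WT run 2, against 17.8, 15.4 and 15.6 CPM in other Tfr cells. Arl5a and Arl4c, small GTPases of the ARF family, Vim, the intermediate filament vimentin, Capg, an actin-capping protein, Crip1, a LIM-domain protein, and Epcam, an adhesion molecule, followed. Capg stood at 588, 480 and 400 CPM in subcluster 1 of BKO, WT run 1 and WT run 2, against 162, 158 and 139 CPM in other Tfr cells. Morrbid, a long non-coding RNA beside Bcl2l11, stood at 148, 192 and 193 CPM, against 44.0, 66.0 and 58.8 CPM. Cep112 and Esyt1 complete the 15 genes ranked first.

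**Figure D1:**
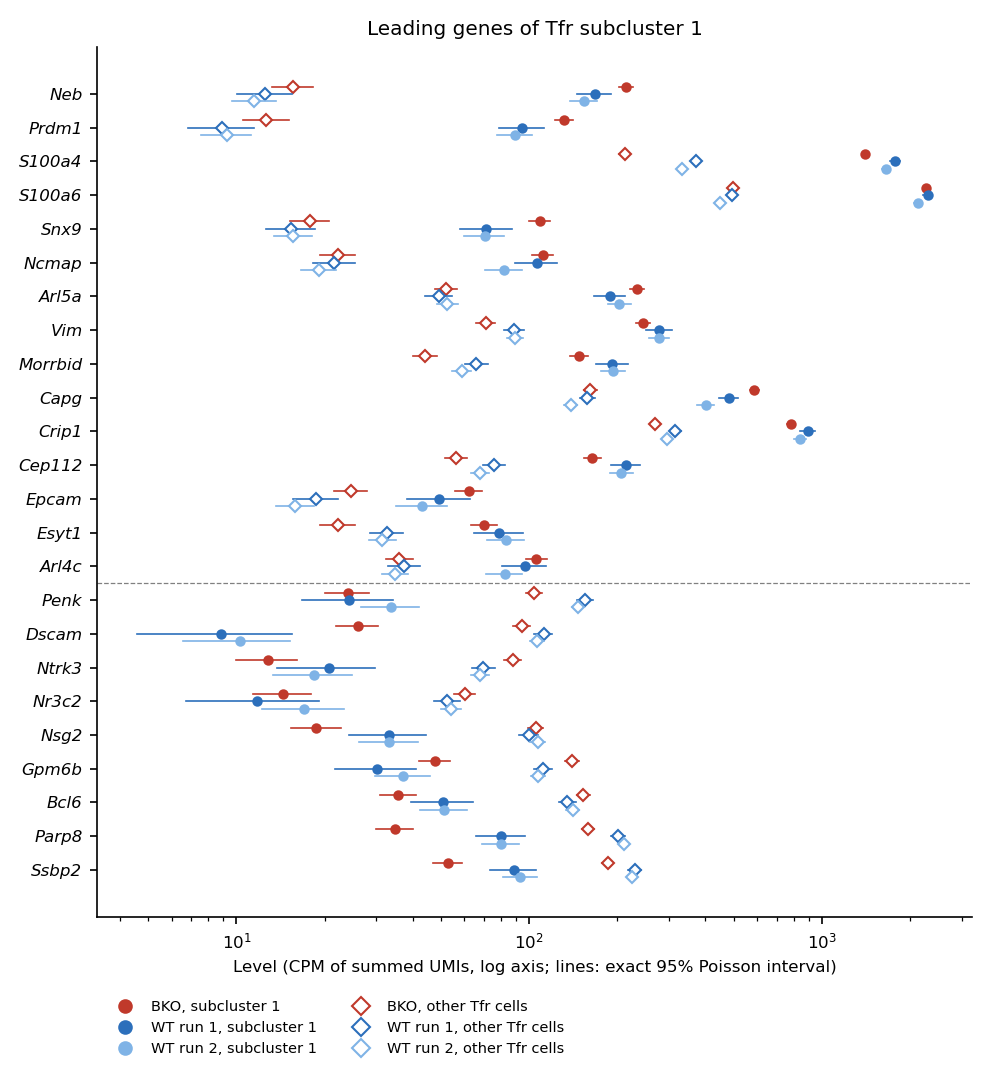
Levels of the 15 leading genes of Tfr subcluster 1 and, under the dashed line, of genes that were lower in it (CPM of summed UMIs, log axis) in subcluster 1 (filled circles) and in the other Tfr cells (open diamonds) of BKO and each WT run, with exact 95% Poisson intervals as lines. The genes were chosen as at least 2-fold apart in BKO and in each WT run, so filled and open symbols lie apart for every gene shown. Neb is at 215, 167 and 154 CPM in subcluster 1 against 15.6, 12.5 and 11.5 CPM in other Tfr cells.

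Among the genes that were lower, Bcl6, the master repressor of the follicular programme, stood at 35.7 CPM in BKO, 50.8 CPM in WT run 1 and 51.2 CPM in WT run 2, against 153, 135 and 141 CPM in other Tfr cells. Penk, the precursor of enkephalin peptides, stood at 23.96, 24.3 and 33.7 CPM, against 104, 155 and 147 CPM. The Penk difference came from 1 other subcluster: Tfr subcluster 4 held 979, 1302 and 1340 CPM in BKO, WT run 1 and WT run 2, while subcluster 0 held 20.6, 19.3 and 29.4 CPM. Dscam, a cell adhesion molecule of neurons, stood at 25.9 CPM in BKO, 8.84 CPM in WT run 1 and 10.2 CPM in WT run 2, against 94.2, 112 and 106 CPM in other Tfr cells. Nsg2, Gpm6b and Ntrk3, best known from neurons, Nr3c2, the mineralocorticoid receptor, Parp8 and Ssbp2 were lower as well. Cd40lg, the main helper signal to B cells, stood at 21.6, 29.5 and 29.4 CPM, against 67.6, 63.3 and 68.7 CPM, and Bach2, a repressor of effector genes, at 57.8, 92.1 and 90.1 CPM, against 122, 194 and 194 CPM.

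Against Tfr subclusters 0, 2, 3 and 4 one at a time, Prdm1 and Neb stood highest in subcluster 1. Prdm1 was between 2.71 and 16.6 CPM in Tfr subclusters 0, 2, 3 and 4 in BKO and both WT runs, and Neb between 7.56 and 48.5 CPM, with the highest Neb value in BKO subcluster 4. S100a4 and S100a6 had a second high group outside the Tfr class. Tfh subcluster 4, a group of follicular helper T cells (Tfh), held 1603 CPM of S100a4 in BKO, 2122 CPM in WT run 1 and 1971 CPM in WT run 2, and 643, 515 and 466 CPM of Klf2. Its Prdm1 was 10.1, 11.5 and 12.3 CPM.

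**Figure D2:**
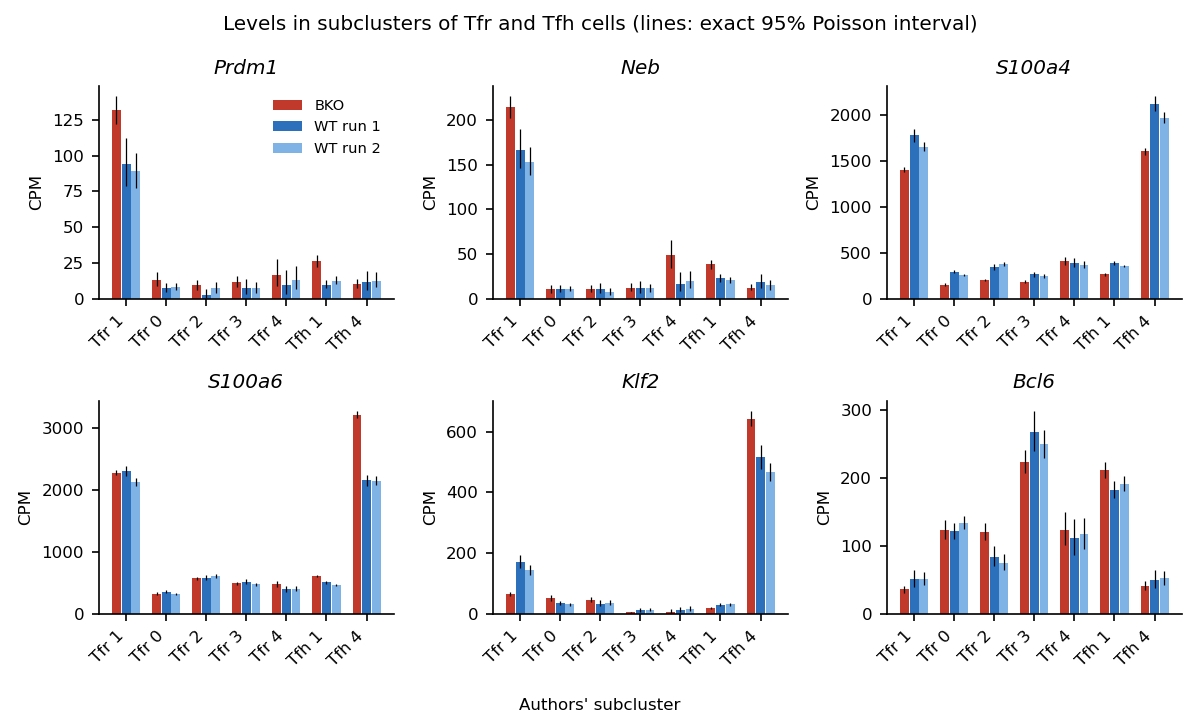
Levels of 6 genes (CPM, exact 95% Poisson intervals) in Tfr subclusters 1, 0, 2, 3 and 4 and Tfh subclusters 1 and 4, for BKO, WT run 1 and WT run 2. Prdm1 and Neb peak in Tfr subcluster 1, S100a4 and S100a6 peak there and in Tfh subcluster 4, Klf2 is 64.5 CPM in BKO subcluster 1 against 170 and 143 CPM in the WT runs, and Bcl6 is at its lowest in Tfr subcluster 1 among the Tfr groups.

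Of 39 effector regulatory T cell genes, 21 were measured at 50 CPM or more. Of these 8 led subcluster 1 and 0 were lower, against 0.678% and 0.616% of all genes. The median log2 ratio of the 21 to other Tfr cells was 0.86, against 0.00 over all genes measured. The 8 were Prdm1, Icos, Lgals1, Capg, S100a4, S100a6, Crip1 and Vim. Prdm1, S100a4 and S100a6 are marker genes of the subcluster, so their place in the count is no independent support. Icos, a costimulatory receptor, stood at 821 CPM in BKO, 660 CPM in WT run 1 and 684 CPM in WT run 2, against 354, 315 and 323 CPM. Il10 was too low to be measured by that minimum, at 52.6 CPM in BKO, 37.6 CPM in WT run 1 and 23.5 CPM in WT run 2, against 9.87, 2.45 and 1.87 CPM in other Tfr cells. Irf4, a factor that acts with Blimp-1 in effector regulatory T cells, stood at 33.0, 30.2 and 37.1 CPM, against 40.8, 26.9 and 25.6 CPM, so it did not mark the subcluster. Ccr8, a chemokine receptor of tissue regulatory T cells, was at 24.7, 21.4 and 26.9 CPM, against 12.6, 9.64 and 9.37 CPM in other Tfr cells, below the minimum for a call.

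Of 20 measured genes of regulatory T cell identity, 2 led (Capg and Tnfrsf1b, a receptor for TNF) and 0 were lower. The shares over all genes were 0.678% and 0.616%, here and for the other lists below. Foxp3 stood at 410 CPM in BKO, 387 CPM in WT run 1 and 381 CPM in WT run 2, against 314, 350 and 321 CPM, and Ikzf2, which encodes Helios, at 3369, 3557 and 3622 CPM, against 2839, 3098 and 3153 CPM. Entpd1, the ectoenzyme CD39, stood at 121, 117 and 110 CPM, against 33.9, 50.6 and 55.5 CPM, and missed the rule in WT run 2. Of 15 measured S100, annexin and galectin genes 6 led, and all 15 had a mean log2 ratio above 0, with a median of 0.85. Of 15 measured genes of resting and recirculating T cells 1 led (Klf2) and 1 was lower (Bach2), with a median of -0.04 and 7 above 0. Il7r stood higher in subcluster 1, at 130, 213 and 219 CPM in BKO, WT run 1 and WT run 2, against 93.6, 134 and 132 CPM. Of 10 measured genes that Blimp-1 is known to repress or to oppose, 1 led and 2 were lower, with a median of 0.10. Of 21 measured follicular genes 1 led (Icos) and 2 were lower (Bcl6 and Cd40lg), with a median of -0.59. Cxcr5, the receptor that leads T cells into follicles, stood at 86.5, 87.6 and 91.3 CPM, against 158, 132 and 128 CPM, and Pdcd1, the receptor PD-1, at 215, 197 and 185 CPM, against 252, 189 and 185 CPM.

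Of 28 measured genes of the actin, myosin and muscle-type cytoskeleton, 3 led (Neb, Capg and Vim), and 27 had a ratio above 0. Cytokine receptors gave 2 of 17, Il18r1 and Ifngr1, the receptors for IL-18 and interferon gamma. Il18r1 stood at 56.8, 81.0 and 80.7 CPM in BKO, WT run 1 and WT run 2, against 17.0, 35.5 and 33.4 CPM. No gene of 38 for oxidative phosphorylation, 13 for glycolysis, 7 for the cell cycle, 15 for type I interferon or 14 inhibitory receptors passed the 2-fold rule in either direction. Over all genes 0.678% led and 0.616% were lower, so a count of 0 in lists of this size is near that share. The mean log2 ratio was above 0 for 34, 8, 5, 13 and 8 of these genes, in the order of the lists.

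Subcluster 1 was not uniform. The authors' finer clustering (resolution 0.6, against 0.3 for the subclusters), whose numbers run over Tfh and Tfr cells together, split it mainly into finer clusters 6, 8 and 0. Finer cluster 6 held 660 of 742 subcluster 1 cells in BKO (88.9%, 86.5 to 91.1), 132 of 229 in WT run 1 (57.6%, 51.0 to 64.1) and 149 of 248 in WT run 2 (60.1%, 53.7 to 66.2). Finer cluster 8 held 4.72%, 14.4% and 12.5%, and finer cluster 0 held 2.56%, 26.2% and 23.8%. Other finer clusters held 3.77%, 1.75% and 3.63%. Most cells of subcluster 1 thus sat in finer cluster 6 in both genotypes, and the remainder was larger in WT. The finer clusters rest on the same genes, so their leading genes are descriptions too.

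**Figure D3:**
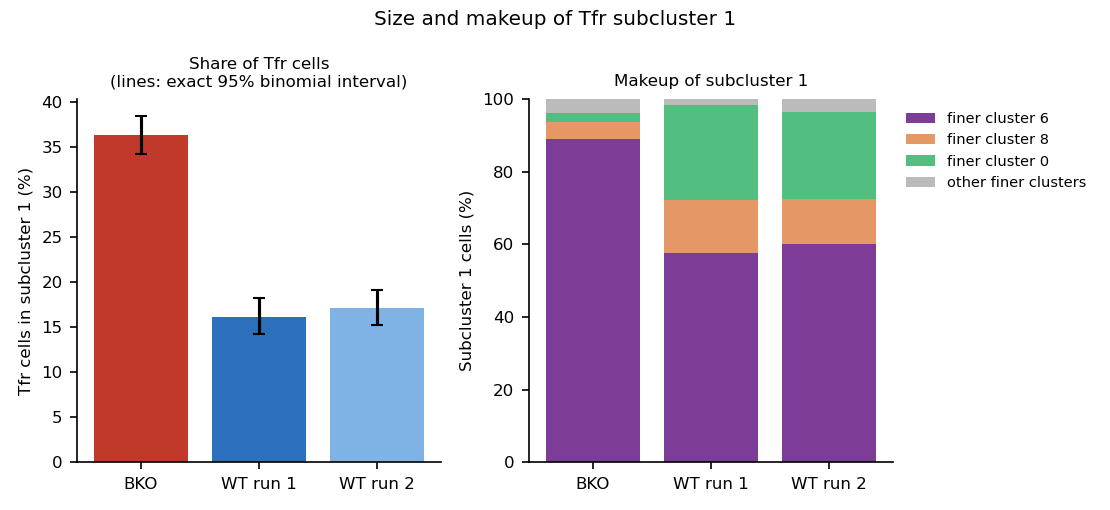
Left, share of Tfr cells in subcluster 1 (%) with exact 95% binomial intervals for BKO (36.3%), WT run 1 (16.2%) and WT run 2 (17.1%). Right, split of the subcluster 1 cells over the authors' finer clusters, where finer cluster 6 takes 88.9% in BKO and 57.6% and 60.1% in the WT runs.

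The markers of subcluster 1 differed in level between its finer clusters. Prdm1 was 143 CPM in BKO, 167 CPM in WT run 1 and 150 CPM in WT run 2 in finer cluster 6, but 27.4, 26.7 and 32.6 CPM in finer cluster 8. Neb was 234, 278 and 258 CPM in finer cluster 6 and 17.1, 44.5 and 35.6 CPM in finer cluster 8. S100a4 ran the other way, at 1228, 972 and 952 CPM in finer cluster 6 and 3943, 3160 and 2645 CPM in finer cluster 8, with 2808, 2352 and 2386 CPM in finer cluster 0. S100a4 in finer cluster 6 was still above the 212, 371 and 333 CPM of other Tfr cells, so finer cluster 6 was high in all 4 markers, and S100a4 was higher again in finer clusters 8 and 0.

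Finer cluster 8 was led by Klf2, the transcription factor of recirculating T cells. Klf2 stood there at 754 CPM in BKO, 632 CPM in WT run 1 and 572 CPM in WT run 2, against 24.5, 26.2 and 28.9 CPM in the finer cluster 6 cells. Itgb1, the integrin beta 1 chain, stood at 998, 1019 and 987 CPM, against 158, 190 and 194 CPM, and S1pr1, the receptor for exit from lymphoid organs, at 415, 182 and 270 CPM, against 56.3, 46.5 and 50.5 CPM. Il10 was 3.4, 0 and 0 CPM there, against 58.9, 71.2 and 42.5 CPM in finer cluster 6. Finer cluster 0 shared high Id3 and Klf2 with finer cluster 8, and its Snx9 was 7.9, 7.2 and 4.5 CPM. Klf2 counted among the 24 leading genes of the whole subcluster, at 2.05-fold, 4.87-fold and 4.48-fold over other Tfr cells, but its mean log2 ratio was -0.29 with finer cluster 6 alone. In BKO finer clusters 8 and 0 are small, with 35 cells in finer cluster 8 and 19 in finer cluster 0.

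**Figure D4:**
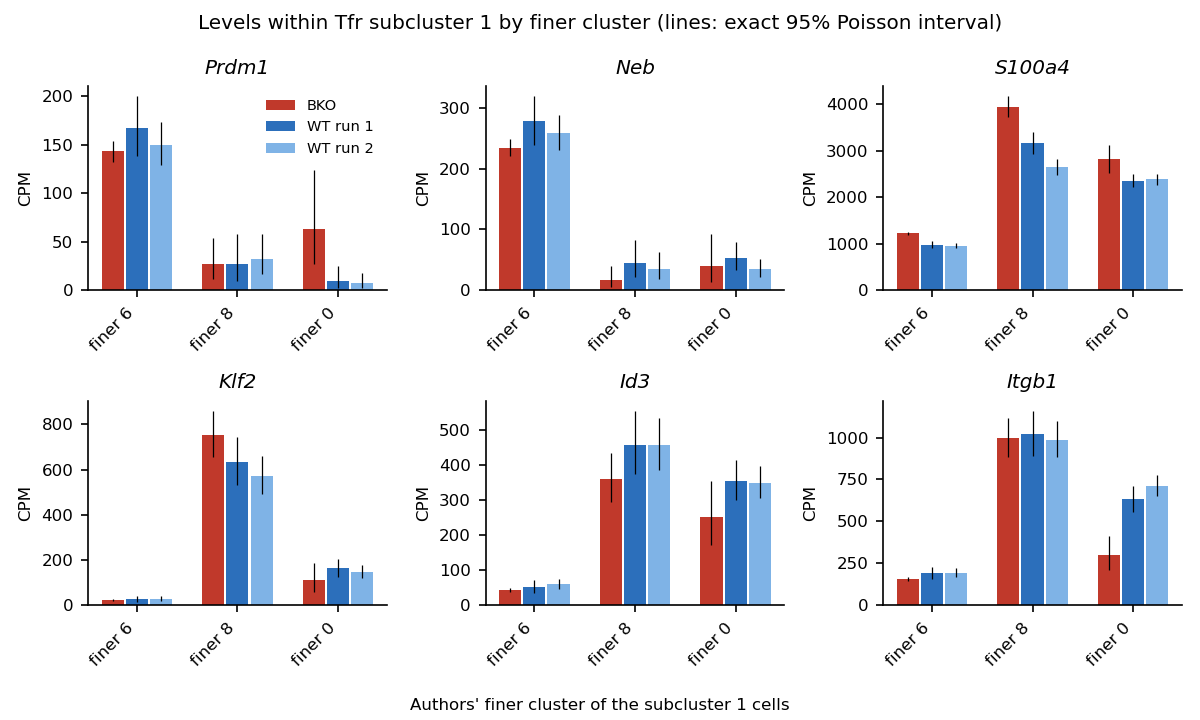
Levels of 6 genes (CPM, exact 95% Poisson intervals) in the subcluster 1 cells of finer clusters 6, 8 and 0 for BKO, WT run 1 and WT run 2. Prdm1 and Neb are high in finer cluster 6, and S100a4, Klf2, Id3 and Itgb1 are high in finer clusters 8 or 0.

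The marker genes were also counted cell by cell. After each cell was thinned to 2500 UMIs, 27.9% of subcluster 1 cells had a Prdm1 UMI in BKO (24.7 to 31.3), 17.5% in WT run 1 (12.8 to 23.1) and 22.2% in WT run 2 (17.2 to 27.9), against 3.02%, 2.34% and 2.09% of other Tfr cells. In Tfh subcluster 0, a group of helper cells, the thinned shares were 0.748%, 0.0997% and 0.287%, so the shares in subcluster 1 lie above that level. Without thinning, 371 of 742 BKO cells, 67 of 229 WT run 1 cells and 91 of 248 WT run 2 cells of subcluster 1 had a Prdm1 UMI. S100a4 and Prdm1 were seen together in 130 of the 207 thinned BKO cells with a Prdm1 UMI, 20 of 40 in WT run 1 and 28 of 55 in WT run 2, while S100a4 was seen in 61.6%, 70.6% and 71.0% of all thinned subcluster 1 cells. Neb was seen in 37.7%, 26.8% and 28.2% of thinned cells, and Prdm1 or Neb in 53.6%, 38.2% and 40.7%. Within finer cluster 6, Prdm1 or Neb was seen in 57.6% of thinned BKO cells (53.7 to 61.4), 58.8% in WT run 1 (49.8 to 67.3) and 62.4% in WT run 2 (54.1 to 70.2), and these intervals overlap.

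Subcluster 1 cells were also split by Prdm1 and Neb, marker genes that were higher in finer cluster 6 than in finer cluster 8. The split therefore repeats in part that of the finer clusters, and it is a description that tests nothing. In cells with a Prdm1 or Neb UMI after thinning, S100a4 was 1159 CPM in BKO, 1113 CPM in WT run 1 and 895 CPM in WT run 2, against 1562, 2037 and 2019 CPM in the remaining subcluster 1 cells. Id3, an inhibitor of E proteins, was 42.2, 46.0 and 47.5 CPM in cells with such a UMI, against 106, 323 and 223 CPM. Tcf7, the stem-like and follicular factor TCF-1, was 51.3, 59.8 and 55.4 CPM, against 110, 179 and 220 CPM. Ctla4 was 991, 979 and 966 CPM, against 765, 471 and 395 CPM, and Il10 78.4, 41.4 and 31.7 CPM, against 27.9, 22.7 and 13.6 CPM. The Il10 values rest on 78 and 24 UMIs in BKO, 9 and 8 in WT run 1 and 8 and 5 in WT run 2. Their 95% intervals overlap in both WT runs.

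Subcluster 1 membership was compared between the WT runs, where the authors placed each barcode once per run. The labels of WT run 2 come from a table whose UMI totals differ from the counts used here. Of 229 WT run 1 barcodes in subcluster 1, 203 were in it in WT run 2 (88.6%, 83.8 to 92.4), against 71.6% to 82.6% for Tfr subclusters 0, 2, 3 and 4. Of 248 WT run 2 barcodes, 203 were in it in WT run 1 (81.9%, 76.5 to 86.4). Most of the others were listed as Tfh cells: 13 and 8 of the WT run 1 barcodes lay in Tfh subclusters 1 and 4 of WT run 2, and 26 and 9 of the WT run 2 barcodes lay in those of WT run 1. Among barcodes listed as Tfr in both runs the shares were 203 of 205 (99.0%) and 203 of 213 (95.3%).

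Subcluster 1 held 36.3% of BKO Tfr cells (34.2 to 38.4), 16.2% of WT run 1 Tfr cells (14.3 to 18.2) and 17.1% of WT run 2 Tfr cells (15.2 to 19.2). The genes that define the subclusters differ between the libraries, so the sizes are given as a description of these libraries. Finer cluster 6 counts followed the same order: 764 of the 2044 BKO Tfr cells lay in it, against 169 of 1416 in WT run 1 and 187 of 1449 in WT run 2. Subcluster 0, the largest Tfr group of the WT runs, held 15.4% in BKO, 39.1% in WT run 1 and 39.96% in WT run 2.

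The comparison of BKO with WT inside subcluster 1 asked whether these cells differed with the B cell genotype. Of 15 measured genes of resting and recirculating T cells 9 were lower in BKO, and of 14 measured inhibitory receptors 2 were higher and 1 lower. A gene was called when its mean over BKO and the WT runs was at least 50 CPM and BKO lay at least 1.5 times beyond both WT runs. By this rule 30 of 3540 genes were higher in BKO (0.847%) and 131 were lower (3.70%), against 27 (0.756%) and 69 (1.93%) of 3573 genes in the other Tfr cells. Set in the same way against the other run and BKO, WT run 1 had 0 genes higher and 3 lower (0.0847%), and WT run 2 had 0 and 0. Because these runs hold the same cells, such counts show the spread between runs of 1 library and give no baseline for a difference between libraries. The headers name Cell Ranger 4 for BKO and 7.0.1 for WT, versions that differ by default in whether reads in introns count, and the sources used here do not state the setting. The BKO/WT ratio moved with intron length: its median log2 value was -0.34 over 589 genes with introns over 100 kb in all, 0.17 over 489 genes under 3 kb and -0.07 over all genes, and 70 of the 131 lower genes were in the first group. Genotype and processing cannot be told apart for any gene, with long introns or short, because the BKO and WT libraries differ in both. With the running median over intron length taken off, 39 genes were higher and 41 lower, but only 19 and 38 of these were among the 30 and 131. TMM scaling moved the median to 0.05 and gave 66 higher and 74 lower, so the share of calls on the higher side was 18.6% with the total and 47.1% with TMM.

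Of the 10 genes ranked first on the higher side, several belong to regulation or to interferon responses. Lag3, an inhibitory receptor that binds MHC class II, stood at 177 CPM in BKO subcluster 1, against 72.9 CPM in WT run 1 and 79.4 CPM in WT run 2, 2.31-fold higher than their mean. Its other Tfr cells stood at 84.2 CPM in BKO, against 44.7 and 40.8 CPM in WT. Ly6a, the interferon-induced surface protein Sca-1, stood at 329 CPM in BKO, against 170 and 145 CPM in WT, 2.09-fold higher. Fabp5, a fatty acid binding protein, stood at 105 CPM in BKO, against 42.0 and 46.5 CPM in WT, 2.35-fold higher. Serpina3g, a protease inhibitor with near-identical neighbours in its gene cluster, stood at 84.0 CPM in BKO, against 33.9 and 33.3 CPM in WT. Tpi1, an enzyme of glycolysis, stood at 91.7 CPM in BKO, against 52.3 and 48.6 CPM in WT. Arnt2, Sccpdh, Iigp1, Mthfsl and H2-Q7 complete the 10, and the last 2 have near-identical relatives among which reads can be split. H2-Q7 was not called with the intron trend taken off (0.58).

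Ctla4, the inhibitory receptor that removes CD80 and CD86 from antigen-presenting cells, stood at 912 CPM in BKO subcluster 1, against 603 CPM in WT run 1 and 568 CPM in WT run 2, 1.56-fold higher. Ctla4 and Lag3 were the 2 genes called higher among 20 measured genes of regulatory T cell identity, and Nrp1, a receptor of thymus-derived regulatory T cells, was the 1 called lower. Among inhibitory receptors Cd96 was called lower, at -0.67, and the list's median log2 ratio was 0.02. With the intron trend taken off, neither Nrp1 (-0.50) nor Cd96 (-0.40) was called. Of 15 measured type I interferon genes 3 were higher (Ly6a, Igtp and Iigp1), against 0.847% of all genes, and 0 lower, with a median log2 ratio of 0.25 in subcluster 1 and 0.20 in other Tfr cells. Igtp was not called with the intron trend taken off (0.62) or in finer cluster 6 (0.64), and Iigp1 was not called in finer cluster 6 (0.36). Among 21 measured members of the effector list none was higher and 3 were lower: Itgb1, Gata3 and the chemokine receptor Ccr4. Over all genes 0.847% were higher and 3.70% lower. Il10 stood at 52.6 CPM in BKO, against 37.6 and 23.5 CPM in WT, below the minimum for a call.

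The 4 marker genes were not called. The log2 ratio of BKO to the mean of the WT runs was 0.52 for Prdm1, 0.42 for Neb, -0.29 for S100a4 and 0.04 for S100a6. Prdm1 alone of the 4 passed with TMM scaling, at 0.63, and Prdm1 and Neb passed with the intron trend taken off, at 0.80 each.

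On the lower side the gene ranked first was Atp6v0d2, a subunit of the proton pump of lysosomes, at 12.1 CPM in BKO, against 67.8 CPM in WT run 1 and 72.1 CPM in WT run 2. It was 5.60-fold lower in BKO subcluster 1, and stood at 8.74 CPM in BKO, against 54.2 and 52.05 CPM in WT in the other Tfr cells. Cd226, an activating receptor that shares ligands with TIGIT, stood at 27.6 CPM in BKO, against 131 and 144 CPM in WT. Id3 stood at 66.7 CPM in BKO, against 219 and 204 CPM in WT, 3.16-fold lower, while other Tfr cells held 216 CPM in BKO, against 221 and 216 CPM. Itgb1 stood at 208 CPM in BKO, against 465 and 485 CPM in WT. Themis, a signalling protein of the T cell receptor, stood at 106 CPM in BKO, against 267 and 262 CPM in WT, and Tnfsf11, the cytokine RANKL, at 49.7 CPM in BKO, against 114 and 127 CPM. Swap70, Aff3, Parp8 and Kif1b complete the 10. Introns sum to 480976 bases in Aff3, 203777 in Themis, 161836 in Parp8 and 113767 in Kif1b, and to 468 bases in Id3.

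Genes of resting and recirculating cells were lower as a list. Of 15 measured members 0 were higher and 9 lower in BKO, among them Klf2, Klf3, Il7r, Tcf7, Lef1, Bach2 and Id3, against 3.70% of all genes, with a median log2 ratio of -0.73 in subcluster 1 and -0.31 in other Tfr cells. Klf2 stood at 64.5 CPM in BKO, against 170 CPM in WT run 1 and 143 CPM in WT run 2. Tcf7 stood at 85.0 CPM in BKO, against 150 and 155 CPM in WT, and Il7r, the IL-7 receptor chain, at 130 CPM in BKO, against 213 and 219 CPM. Of 9 measured genes that Blimp-1 is known to repress or to oppose, 7 were lower and 0 higher, all 7 of them also on the list of resting genes. Follicular genes gave 6 lower of 18 (Id3, Tcf7, Lef1, Slamf6, Il6ra and Asap1). In finer cluster 6 they gave 1 of 17, Il6ra, against 175 of 3623 genes in all. Lef1, Il6ra and Asap1 were not called with the intron trend taken off, nor Slamf6 and Il6ra with TMM scaling. Bach2, of the resting genes, was called neither with the intron trend taken off (-0.26) nor with TMM scaling (-0.54).

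Several of these differences were smaller within finer cluster 6 alone. The finer clusters rest on the same genes. Klf2, Id3, Itgb1, Ms4a4b and Tcf7 were among the leading genes of finer clusters 8 or 0 over finer cluster 6. Keeping finer cluster 6 thus selects cells low in these genes in both genotypes, and the smaller ratios test nothing. Within the subcluster 1 cells of finer cluster 6 alone, Id3 stood at 43.2 CPM in BKO, against 50.9 CPM in WT run 1 and 59.3 CPM in WT run 2, a log2 ratio of -0.35 in place of -1.66. Klf2 stood at 24.5 CPM in BKO, against 26.2 and 28.9 CPM in WT (-0.17 in place of -1.27), and Itgb1 at 158 CPM in BKO, against 190 and 194 CPM (-0.28 in place of -1.19). Ms4a4b was at 0.01 in place of -0.96, and Tcf7 at -0.30 in place of -0.84. Themis stood at -0.51 in place of -1.32 and Tnfsf11 at -0.48 in place of -1.27. None of these genes was called in finer cluster 6. Of 13 measured resting genes 3 were called lower there, Il7r, Bach2 and Klf3, against 175 of 3623 genes in all. Whether makeup accounts for any of these differences was not tested, and finer cluster 6 was chosen as a restriction after the data were seen.

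The ratios of Prdm1 and Neb in finer cluster 6 also differed from those in the whole subcluster. In finer cluster 6 their log2 ratios were -0.15 and -0.19, whereas S100a4 stood at 0.35 and S100a6 at 0.51, with S100a6 at 2165 CPM in BKO, against 1516 and 1515 CPM in WT. The ratios of Prdm1, Neb and S100a4 thus had the opposite sign in finer cluster 6 and in the whole subcluster, and none of the 4 was called in either. Ctla4 stood at 983 CPM in BKO, against 933 and 847 CPM in WT, a log2 ratio of 0.14 in place of 0.64. Lag3 stood at 192 CPM in BKO, against 122 and 131 CPM (0.60 in place of 1.21), and was no longer called because the ratio to WT run 2 was 0.56.

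Other differences were present in finer cluster 6 as well. Swap70 had a log2 ratio of -1.60 there and Ly6a 0.89, with 333 CPM in BKO, against 198 and 162 CPM in WT. Fabp5 had 0.98, Tpi1 0.69 and Serpina3g 0.88, and all 4 of the last named were called higher. Il2ra, the high-affinity chain of the IL-2 receptor, stood at 116 CPM in BKO, against 269 CPM in WT run 1 and 251 CPM in WT run 2, and was called lower in finer cluster 6, while in the whole subcluster it stood at 106 CPM in BKO, against 147 and 165 CPM, with no call. Cxcr3, a chemokine receptor of type 1 responses, was named after its values were seen: it stood at 78.7 CPM in BKO, against 26.2 and 26.5 CPM in WT, with a mean below 50 CPM. Within finer cluster 6, 14 of 3623 genes were higher and 175 lower, 10 and 60 of them shared with the calls of the whole subcluster.

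**Figure D5:**
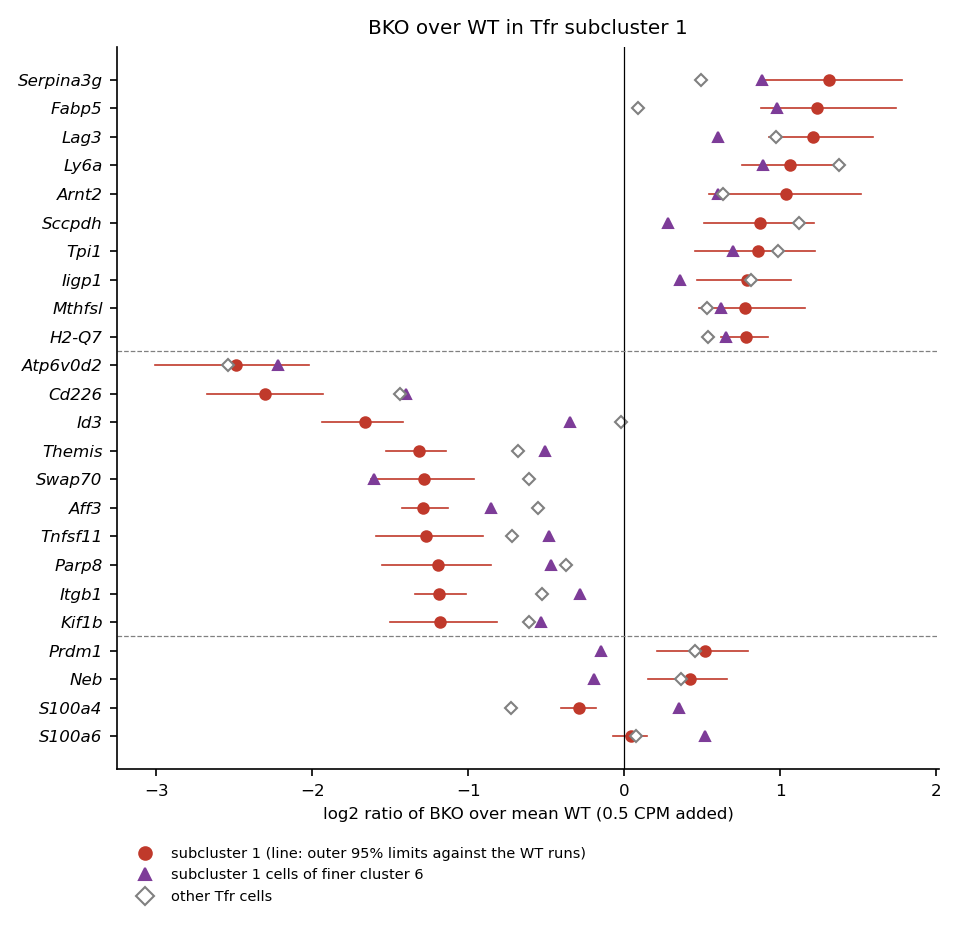
Log2 ratios of BKO over the mean of the WT runs for the 10 genes ranked first in each direction and the 4 marker genes, in subcluster 1 (circles, with the outer limits of the 95% intervals against the WT runs), in its finer cluster 6 cells (triangles) and in other Tfr cells (open diamonds). Id3 stands at -1.66 in subcluster 1, -0.35 in finer cluster 6 and -0.02 in other Tfr cells, while Atp6v0d2 stands between -2.54 and -2.22 in all 3.

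The difference between the ratio in subcluster 1 and that in the other Tfr cells was called for 17 of 3755 genes on the higher side (0.453%) and 21 on the lower side (0.559%). On the lower side, Id3 differed by -1.67 against WT run 1 and -1.61 against WT run 2 on the log2 scale, Klf2 by -1.25 and -1.13, Tcf7 by -1.05 and -1.06, Ntrk3 by -0.996 and -0.87, and Cd226 by -0.81 and -0.91. On the higher side, Fabp5 differed by 1.38 and 0.90, and Dscam by 1.75 and 1.47. Ccl5, a chemokine of effector T cells, differed by 4.44 and 3.90, with 51.0 CPM in BKO subcluster 1, against 78.1 and 83.6 CPM in WT, and 13.5 CPM in other BKO Tfr cells, against 463 and 340 CPM in WT. Tfr subcluster 6 held 0 BKO cells, 27 cells of WT run 1 and 20 of WT run 2, and without it the Ccl5 difference was 0.99 and that of Nkg7, a cytotoxic granule protein, was 0.94, against 2.12 and 1.85 with it. Runx3, a factor of cytotoxic cells, differed by 0.95 and 0.87, and by a mean of 0.68 without Tfr subcluster 6.

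Markers of other cell types were measured beside the results. The 15 B cell markers summed to 1408 CPM in BKO, 1020 CPM in WT run 1 and 1016 CPM in WT run 2, against 1161, 793 and 825 CPM in other Tfr cells, with 2 of the markers at 0. Cd79a, the receptor's signalling chain in B cells, had 3, 0 and 3 UMIs in subcluster 1. The B cell sum was thus higher than in other Tfr cells in BKO and in both WT runs. The 12 myeloid markers summed to 172, 136 and 123 CPM, against 121, 93.8 and 89.3 CPM in other Tfr cells, with 6 at 0. The 13 CD8 T and NK markers summed to 77.3, 81.0 and 68.3 CPM, against 60.2, 153 and 114 CPM, with 5 at 0. Of 10 plasma cell markers 1 was measured, Prdm1 itself, and 4 were at 0. Erythroid and platelet markers summed to 5.59, 5.16 and 4.27 CPM. The part of such RNA in the results was not tested. BKO barcodes of 1 to 50 UMIs, which hold RNA from outside cells, carried 17.8 CPM of Prdm1 and 20.8 CPM of Neb, against 132 and 215 CPM in BKO subcluster 1. The other BKO Tfr cells stood below those barcodes, at 12.6 CPM of Prdm1 and 15.6 CPM of Neb. Each WT matrix held 0 barcodes of 1 to 50 UMIs, so WT gave no such values.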

How the data were processed

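Follicular T cells of 1 BKO library and 1 WT library in 2 runs were measured with the 10x Chromium 3′ kit. The authors deposited unnormalised UMI counts for each barcode and gene, together with tables of Tfr and Tfh cells with UMI counts, mitochondrial percent and cluster numbers at resolutions 0.3 (subclusters) and 0.6 (finer clusters), per the file headers. Counts came from Cell Ranger 4 for BKO and 7.0.1 for WT, per the file headers, on mm10, per the submitters' processing notes. How doublets were treated is not stated, and no caller was run. The authors' matrices held 85225125 UMIs for BKO, 32518538 for WT run 1 and 54059000 for WT run 2.

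Subcluster 1 cells were matched to the matrices by barcode, and UMIs were summed per sample and scaled as CPM, with 0.5 CPM added for ratios. With 1 library against 1, no test was run. Genes needed a mean of 50 CPM over the 3 samples, and 2-fold (leading genes) or 1.5-fold (BKO against both WT runs, and the difference of ratios). Poisson and Clopper-Pearson intervals are exact at 95%. The members, gene lists and rules were chosen with earlier results of these data known. Named genes are the 15 higher and 10 lower leading genes, 10 per direction for BKO against WT and 5 per direction for the difference, then list members that were called and a few standing genes such as Foxp3, Il10 and Il2ra. List members named without a call were chosen after their values were seen, and so was Cxcr3. Unnamed gene models, TCR and immunoglobulin segments, ribosomal and mitochondrial genes were not named: in BKO, 4 of 92 unnamed models and 1 of 103 genes of the other classes were higher, and 6 and 1 lower. Some genes that these rules take are not reported here. The size rules were tested on simulated data. Python 3.11.15, numpy 2.4.6, pandas 2.3.3, scipy 1.17.1, matplotlib 3.10.9, R 4.3.3 and edgeR 4.0.16 (TMM factors) were used. Alternatives covered scaling, minimum, fold, thinning, intron length, WT run, comparator and finer cluster.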

Additional observations from a re-analysis of the deposited data

Results flagged for a closer look

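For 5 of the named genes whose difference of ratios passed the 1.5-fold rule, the log2 ratio of BKO to the mean of the WT runs had opposite signs in subcluster 1 and in the other Tfr cells, against both WT runs. Opposite signs of smaller size, such as those of Foxp3 and Cxcr5, are not counted. The difference was not tested, since each genotype has 1 library. Bcl6 stood at -0.51 in subcluster 1 and 0.15 in other Tfr cells. Tcf7, which acts with Bcl6 in follicular T cells, stood at -0.84 in subcluster 1 and 0.21 in other Tfr cells, and Ntrk3, a neurotrophin receptor, at -0.59 and 0.35. Dscam stood at 1.40 in subcluster 1 and -0.21 in other Tfr cells, and Runx3 at 0.23 and -0.68.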

How the results depend on the processing

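Of 407 recomputed values of 37 leading genes, 324 moved by less than the half-width of their counting interval, 81 moved by more and 2 changed sign. For BKO against WT the numbers were 469, 46 and 1 of 516 values of 43 genes, and for the difference of ratios 68, 20 and 2 of 90 values of 10 genes. Settings that change only the minimum or the fold leave every ratio as it was, so their values could not move. They are in the unmoved counts, with 37, 43 or 10 values for each such setting, and say nothing about stability. The sign changes were those of Penk among leading genes against Tfr subcluster 0 alone (0.24), Klf2 among leading genes with finer cluster 6 alone (-0.29), Ms4a4b in BKO against WT in finer cluster 6 (0.013), and in the difference Klf2 against subcluster 3 alone (0.33) and Cd226 in finer cluster 6 (0.041). Leading genes, 24 higher and 22 lower, became 40 and 48 at a minimum of 20 CPM, 91 and 81 at 1.5-fold, 37 and 40 against subcluster 0, 48 and 3 against subcluster 2, 51 and 81 against subcluster 3, and 49 and 48 with finer cluster 6 alone. BKO against WT, 30 higher and 131 lower, became 66 and 74 with TMM, 64 and 239 at 20 CPM, 1422 and 1464 with no minimum, 3 and 16 at 2-fold, 39 and 41 with the intron trend taken off, 14 and 175 in finer cluster 6, and 47 to 66 higher and 160 to 190 lower when WT run 1 or WT run 2 was left out. The difference, 17 higher and 21 lower, became 18 and 90 against subcluster 0, 40 and 32 against subcluster 2, 41 and 67 against subcluster 3, 51 and 77 at 20 CPM, 19 and 34 in finer cluster 6, and 20 to 32 higher and 28 to 31 lower with 1 WT run left out. The share of both WT runs in subcluster 1, 16.6%, was 18.1% over barcodes that were Tfr in both runs, where agreement between runs was 99.0% and 95.3% in place of 88.6% and 81.9%. Unthinned shares with a Prdm1 UMI were 50% in BKO, 29.3% in WT run 1 and 36.7% in WT run 2, and with a Neb UMI 61.5%, 44.98% and 53.2%. At 4000 UMIs per cell they were 32.9% in BKO, 26.2% in WT run 1 and 23.5% in WT run 2 for Prdm1, so the WT runs changed their order, and 47.6%, 35.5% and 38.5% for Neb in BKO, WT run 1 and WT run 2. Causes of these changes were not tested. The restrictions to finer cluster 6 and to other Tfr cells without subcluster 6 were chosen after seeing the data. No paired analysis was possible because BKO and WT share fewer than 2 replicate numbers. Depth limits low genes such as Il10, with 51 UMIs in WT run 1.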
